A study of Mus musculus with 8 samples.

Results

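Nucleotide excision repair (NER) and translesion synthesis genes were followed in the hippocampus of adult male mice dosed with benzo[a]pyrene (BaP), a polycyclic aromatic hydrocarbon whose diol epoxide binds guanine and leaves a bulky DNA adduct. The set held 41 genes chosen by symbol for their roles in these pathways, and the rule used no measured value, although earlier results of these data were known when it was written. All 41 were among the 20660 named genes on the array, and 40 were bright enough to be tested among 15090 tested genes. *Polh* was the exception. A gene with several probes was represented by the one brightest in the hippocampus channel.

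The animals were Muta Mouse males of 9 weeks of age, a strain that carries a bacterial *lacZ* reporter transgene for scoring mutations, so both groups carried it. The BaP-exposed group received 70 mg/kg body weight daily for 3 days by gavage in olive oil, and the Control group received the oil alone. Hippocampi were collected 24 hr after the final dose from 5 animals in each group, and 4 per group, labeled as biological replicates, were arrayed here. On each of the 8 arrays, all lying on 1 slide, hippocampal RNA carried Cy5 and a universal mouse reference RNA carried Cy3, and no dyes were swapped. Values below are log2 ratios of Cy5 over Cy3 for a mouse, and log2 fold changes are the BaP mean minus the Control mean of these ratios.

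Sample titles set the groups. For the 4 arrays of the second slide row (Control 3, Control 4, BaP 3 and BaP 4) the source-name field gives the opposite treatment from the title, so results for the 4 genes with an unadjusted p of 0.05 or less are also given with the groups taken from that field. On every array the 10 markers of hippocampal neurons lay above the reference. Median Cy5 intensities ran from 108 to 174 over local backgrounds of 67 to 71, and 56.6% to 67.4% of 59305 spots were well above background. The array of Control 1 had 1483 outlier spots, compared with 310 to 371 on the other 7. Correlations between arrays were 0.969 to 0.990 across probes.

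NER removes bulky adducts by a cut on either side of the lesion, after which the gap is filled and sealed. Damage is found genome-wide by XPC or, where RNA polymerase stalls, by the Cockayne syndrome proteins, and both routes load the helicase complex TFIIH. Adducts left in place can be copied by translesion polymerases, of which the one encoded by *Polk* is known for accurate bypass of BaP-guanine adducts.

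BaP is a ligand of the aryl hydrocarbon receptor, which binds xenobiotic response elements (XREs), and many replication genes that also serve repair are regulated by E2F factors, so the 250 bases before the annotated start of each gene were searched for both motifs. Of the 41 genes, 34 had an entry in the RefSeq promoter sequences (GRCm38.p6). The XRE core, TNGCGTG on either strand, was in the promoters of 4 of the 34, compared with 4.8% of 27025 genes. The promoters of these genes were richer in GC, with a median of 64.4% compared with 52.4% over all promoters, and the part of this in the count of matches to a motif with a CpG was not tested. Each of the 4 matches follows with 25 bases on both sides, the match in capitals, read in the direction of the gene.
*Ercc8*, chr13:108158598-108158654, plus strand: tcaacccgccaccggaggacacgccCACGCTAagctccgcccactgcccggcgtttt
*Pold2*, chr11:5878415-5878471, minus strand: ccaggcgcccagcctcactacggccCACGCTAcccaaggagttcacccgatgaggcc
*Rfc4*, chr16:23127731-23127787, minus strand: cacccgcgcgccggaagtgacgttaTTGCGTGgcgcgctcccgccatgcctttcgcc
*Xrcc1*, chr7:24546614-24546670, plus strand: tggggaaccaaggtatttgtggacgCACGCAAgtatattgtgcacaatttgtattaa

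The 4 genes with an XRE match had log2 fold changes, by their brightest probes, of -0.06 for *Ercc8*, 0.03 for *Pold2*, 0.01 for *Rfc4* and -0.02 for *Xrcc1*, with standard errors of 0.08 to 0.10. A second, dimmer *Rfc4* probe gave 0.21 (SE 0.10; limma adjusted p = 0.584) with overlapping groups. An E2F motif (TTTCCCGC, TTTCGCGC, TTTGCCGC or TTTGGCGC on either strand) was in 1 of the 34 promoters, that of *Rfc3*, compared with 2.2% of genes. No XRE match overlapped it, since the matches lay in different genes. The *Rfc3* promoter is shown with its match in capitals, starting 10 bases before the annotated start. The *Xpa* promoter, in which neither motif was found, follows it because both *Xpa* probes gave an unadjusted p below 0.05. A match to these letters is a description of the sequence and not evidence of binding.
*Rfc3*, chr5:151651209-151651458, minus strand: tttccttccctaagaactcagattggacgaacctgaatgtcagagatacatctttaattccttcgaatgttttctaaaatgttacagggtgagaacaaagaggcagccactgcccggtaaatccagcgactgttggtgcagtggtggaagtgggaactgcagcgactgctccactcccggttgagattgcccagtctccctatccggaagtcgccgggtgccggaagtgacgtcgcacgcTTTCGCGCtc
*Xpa*, chr4:46196312-46196561, minus strand: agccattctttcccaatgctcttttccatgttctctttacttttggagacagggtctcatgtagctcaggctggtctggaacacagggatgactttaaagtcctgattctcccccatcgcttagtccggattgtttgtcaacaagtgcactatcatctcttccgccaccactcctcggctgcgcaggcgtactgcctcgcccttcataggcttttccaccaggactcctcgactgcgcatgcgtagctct

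No repair or translesion gene differed between BaP-exposed and Control mice at the threshold used, a limma adjusted p of 0.05 together with 1.5-fold. Over all tested genes 3 passed, or 0.0199%. Among the brightest probes of the 40 genes, the lowest limma adjusted p was 0.478, for *Pole*. A second, dimmer *Xpa* probe gave 0.350. An unadjusted p of 0.05 or less was found for 4 of the 40, namely *Pole*, *Rfc3*, *Xpa* and *Gtf2h3*, close to the 9.44% found for all tested genes. The 4 BaP values did not overlap the 4 Control values for 3 genes, *Pole*, *Rfc3* and *Gtf2h3*, compared with 5.12% of all tested genes. With median centering in place of loess, 6 reached an unadjusted p of 0.05 (22.8% of all tested genes) and 4 had no overlap (9.95%).

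The differences were small as well as unsupported by the test. The median log2 fold change of the 40 genes was -0.026, with 15 values above 0 and 25 below, and the median over all tested genes was -0.00011, with 7539 above and 7551 below. This split depended on the scaling. With median centering in place of loess, which moved the median of all genes to 0.21, 25 of the 40 lay above the all-gene median and 15 below, and with the authors' normalized ratios 10 lay above it and 30 below. Without Control 1, the array with most outlier spots, an unadjusted p of 0.05 or less was found for 4 (10.3% of all tested genes) and no overlap for 6 (10% of all tested genes). The median size of the log2 fold change, sign ignored, was 0.058 for these genes and 0.098 for all tested genes. Replicate mice also differed less in these genes, with a median pooled SD of 0.12 compared with 0.15. For 38 of the 40 genes the 95% interval of the fold change lay within 1.5-fold in either direction, compared with 86.3% of all tested genes. The exceptions were *Uvssa*, from -0.68 to 0.19 on the log2 scale, and *Gtf2h3*, from 0.02 to 0.61. These intervals are of the brightest probes only. The dimmer *Xpa* probe, at 0.45 (SE 0.09), was not counted. A 1.5-fold change corresponds to 0.58 on the log2 scale. In a bulk sample, fewer cells of a type and less RNA per cell cannot be told apart.

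**Figure D1:**
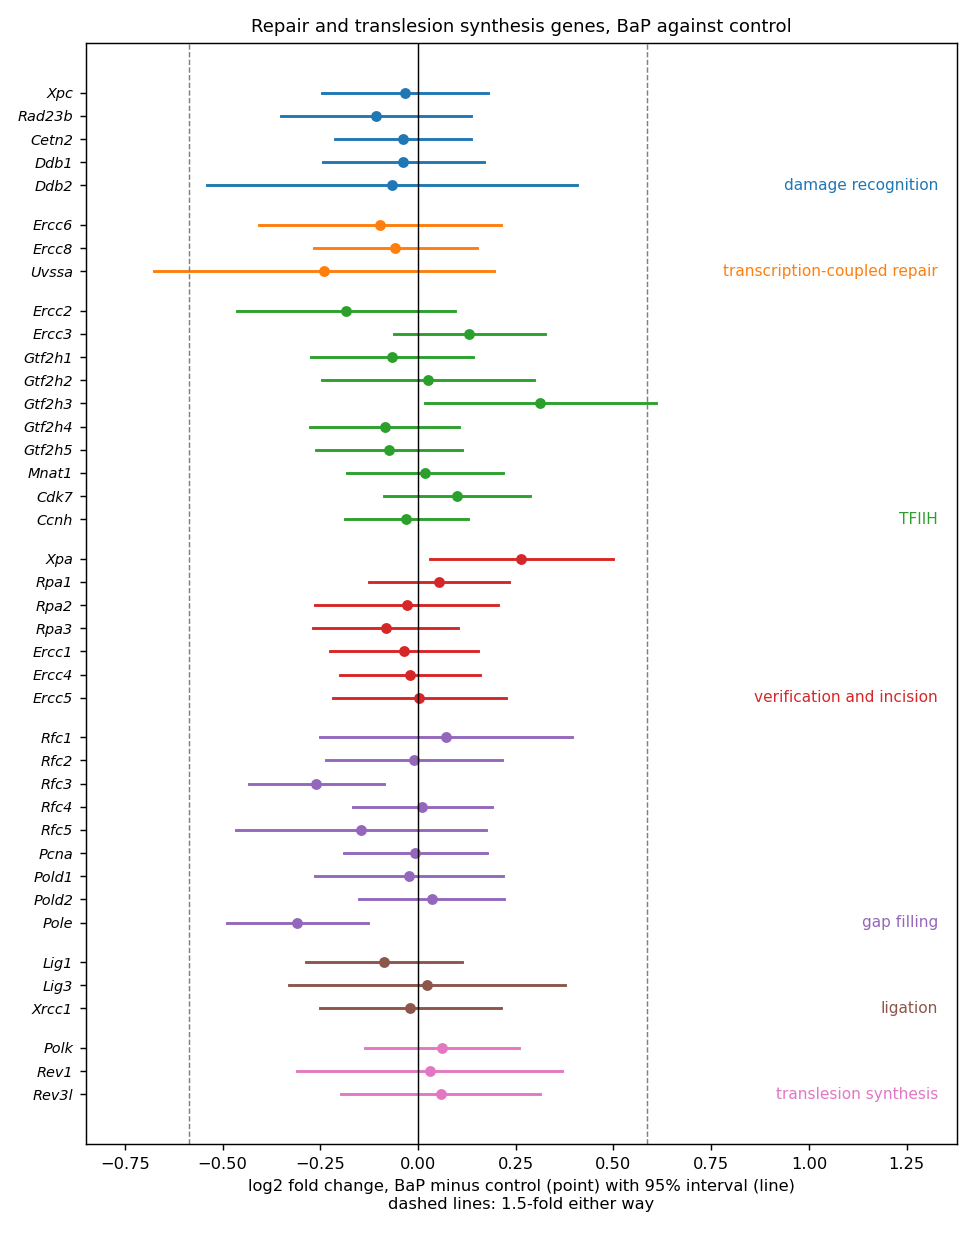
Log2 fold change of each of the 40 tested genes (BaP minus Control; point) with its 95% interval (line), grouped by role, with dashed lines at 1.5-fold either way. The intervals of 4 genes exclude 0, those of *Pole* and *Rfc3* below it and those of *Xpa* and *Gtf2h3* above it, and no point passes a dashed line.

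Damage recognition genes had log2 fold changes from -0.11 to -0.03, all 5 below 0 and none past the test, though with median centering 1 of the 5 lay below the all-gene median. *Xpc* encodes the sensor of helix distortion that starts global genome NER. Its ratios were -0.29, -0.14, -0.26 and -0.46 in Control 1 to 4 and -0.40, -0.34, -0.15 and -0.40 in BaP 1 to 4. The BaP values lay inside the Control range, and the log2 fold change was -0.03 (SE 0.10; limma adjusted p = 0.940). *Rad23b*, whose product stabilizes XPC, had the largest difference of the group. Its ratios were -1.35, -1.16, -1.25 and -0.97 in Control mice and -1.34, -1.18, -1.49 and -1.15 in BaP-exposed mice, a log2 fold change of -0.11 (SE 0.11; limma adjusted p = 0.787). The groups overlapped, and a second, dimmer *Rad23b* probe gave 0.08.

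*Ddb2*, a p53 target in human cells that encodes the adduct-binding subunit of the UV-damaged DNA-binding complex, varied the most from mouse to mouse, with a pooled SD of 0.36. Ratios were -0.86, -1.74 and -1.40 in Control 2, 3 and 4, and -1.50, -1.39, -1.04 and -1.67 in BaP 1 to 4. The spot of Control 1 was an outlier and was dropped, so this fit rested on 7 mice. The groups overlapped over most of their range and the log2 fold change was -0.07 (SE 0.21; limma adjusted p = 0.947). It was -0.58 within the first slide row, where Control 2 was the only Control value, and 0.21 within the second, and its sign turned to 0.17 without Control 2. *Ddb1*, encoding its partner subunit, and *Cetn2*, encoding the centrin of the XPC complex, each gave -0.04.

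Transcription-coupled repair genes were also below 0 in all 3 cases and unsupported by the test, though with median centering 1 of the 3 lay below 0 (all 3 below the all-gene median), and 2 of the 3 with Agilent's log ratios or with Cy5 alone. *Ercc6*, encoding the ATPase CSB, gave -0.10, and *Ercc8*, encoding the ubiquitin ligase subunit CSA, gave -0.06, or 0.04 by its dimmer probe. *Uvssa*, whose product brings TFIIH to the stalled polymerase, had the largest value, -0.24 (SE 0.20; limma adjusted p = 0.725). Its ratios were 0.23, -0.63, -0.59 and -0.77 in Control mice and -0.75, -0.47, -0.69 and -0.81 in BaP-exposed mice. Control 1 alone stood apart, and without it the log2 fold change was -0.02. The probe was dim, well above background on 5 of 8 arrays.

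TFIIH genes were evenly split, with 5 log2 fold changes above 0 and 5 below. *Gtf2h3*, encoding the core subunit p34, had the largest difference of the 40 genes by their brightest probes. *Pole* came next at -0.31. With the authors' normalized ratios *Pole* had the larger difference, -0.33 compared with 0.28 for *Gtf2h3*. The *Gtf2h3* ratios were -0.99, -0.99, -1.06 and -1.56 in Control mice and -0.92, -0.84, -0.67 and -0.92 in BaP-exposed mice. All 4 BaP values were above all 4 Control values, and the log2 fold change was 0.31, or 1.24-fold higher (SE 0.13; limma adjusted p = 0.556). An exact 2-sided permutation test gave p = 0.0286, the smallest value that 4 mice against 4 allow. Much of the difference came from Control 4, without which it was 0.18 (limma adjusted p = 0.715). It was 0.11 within the first slide row and 0.51 within the second, and -0.20 with the groups taken from the source-name field.

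The remaining TFIIH genes showed overlapping groups, over 7 mice for *Gtf2h5*, whose Control 1 spot was dropped as an outlier. *Ercc2*, encoding the XPD helicase that opens DNA around the lesion, gave -0.18, and *Ercc3*, encoding the XPB translocase, gave 0.13. Of the other core subunits, *Gtf2h1* gave -0.07, *Gtf2h2* 0.03, *Gtf2h4* -0.09 and *Gtf2h5* -0.07. The kinase module of the complex comprised *Cdk7* at 0.10, its cyclin *Ccnh* at -0.03 and the assembly factor *Mnat1* at 0.02. A second, dimmer *Cdk7* probe gave -0.08.

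Among genes for lesion verification and incision, *Xpa* stood first. It encodes the scaffold that checks the opened lesion and positions the nucleases. Ratios were -0.34, -0.48, -0.64 and -0.70 in Control mice and -0.43, -0.21, -0.12 and -0.34 in BaP-exposed mice. Only the BaP 1 value lay within the Control range, and the log2 fold change was 0.26, or 1.20-fold higher (SE 0.10; limma adjusted p = 0.538). The exact 2-sided permutation p was 0.0571.

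A second, dimmer *Xpa* probe separated the groups. Its ratios were -0.63, -0.66, -0.84 and -0.90 in Control mice and -0.46, -0.27, -0.22 and -0.31 in BaP-exposed mice. Every BaP-exposed mouse was above every Control mouse, and the log2 fold change of 0.45 (SE 0.09) had an unadjusted p of 0.000681 and an adjusted p of 0.350 in limma. Both probes therefore had the same sign without passing the threshold. For the brighter probe the value was 0.09 within the first slide row, 0.44 within the second and -0.17 with the groups of the source-name field. The dimmer probe separated the groups within both rows. The mean of both probes gave 0.36 (SE 0.10; limma adjusted p = 0.504).

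The other incision genes were closer to 0. The single-strand binding protein RPA, which protects the undamaged strand, is encoded by *Rpa1* at 0.05, *Rpa2* at -0.03 and *Rpa3* at -0.08. *Ercc1* at -0.04 and *Ercc4* at -0.02 encode the nuclease that cuts 5′ of the lesion, and *Ercc5* at 0.00 encodes XPG, which cuts 3′ of it.

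**Figure D2:**
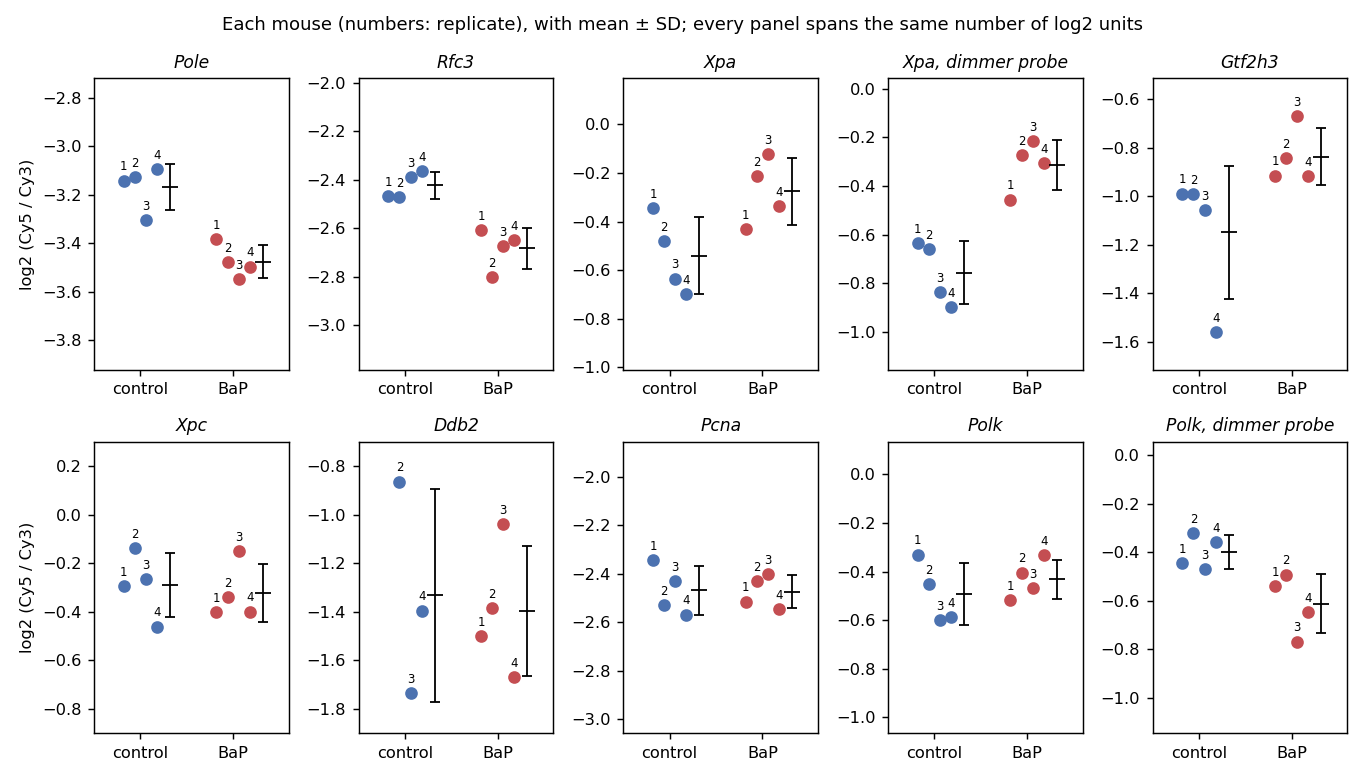
Log2 ratio of Cy5 over Cy3 in each mouse (numbered points; blue, Control; red, BaP) with the group mean and SD (black), for 8 genes and the dimmer probes of *Xpa* and *Polk*, every panel spanning the same number of log2 units. The groups separate for *Pole*, *Rfc3*, *Gtf2h3* and both dimmer probes, and they overlap for *Xpc*, *Ddb2* and *Pcna*.

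Gap-filling genes held both of the lower values with an unadjusted p of 0.05 or less. *Pole* encodes the catalytic subunit of DNA polymerase epsilon. Its ratios were -3.14, -3.13, -3.31 and -3.09 in Control mice and -3.38, -3.48, -3.55 and -3.50 in BaP-exposed mice. All BaP values were below all Control values, and the log2 fold change was -0.31, or 1.24-fold lower (SE 0.08; limma adjusted p = 0.478). The exact 2-sided permutation p was 0.0286.

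*Rfc3*, encoding a small subunit of the clamp loader, whose promoter held the E2F match shown above, had the same pattern. Ratios were -2.47, -2.47, -2.39 and -2.36 in Control mice and -2.61, -2.80, -2.67 and -2.65 in BaP-exposed mice. The groups did not overlap, with a log2 fold change of -0.26, or 1.20-fold lower (SE 0.08; limma adjusted p = 0.496) and an exact 2-sided permutation p of 0.0286. Within the first and second slide rows *Pole* gave -0.30 and -0.32, and *Rfc3* gave -0.23 and -0.28. With median centering *Pole* and *Rfc3* both gave -0.03, or -0.24 relative to the all-gene median. With the groups of the source-name field the values were 0.013 for *Pole* and 0.025 for *Rfc3*.

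The clamp itself, *Pcna*, did not separate the groups. Its ratios were -2.34, -2.53, -2.43 and -2.57 in Control mice and -2.52, -2.43, -2.40 and -2.55 in BaP-exposed mice, a log2 fold change of -0.01 (SE 0.08; 95% interval -0.19 to 0.18; limma adjusted p = 0.989). The other clamp loader genes gave 0.07 for *Rfc1*, -0.01 for *Rfc2*, 0.01 for *Rfc4* and -0.15 for *Rfc5*. The *Rfc5* value rested on Control 2 and was 0.01 without it. Polymerase delta was represented by its catalytic subunit *Pold1* at -0.02 and its accessory subunit *Pold2* at 0.03.

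Ligation genes gave 3 overlapping comparisons. *Lig1*, the replicative ligase, had the largest difference. Its ratios were -3.14, -3.17, -3.24 and -3.40 in Control mice and -3.45, -3.36, -3.28 and -3.21 in BaP-exposed mice, and the log2 fold change was -0.09 (SE 0.09; limma adjusted p = 0.788). *Lig3*, the ligase used in nondividing cells, gave 0.02, and its partner *Xrcc1* gave -0.02.

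The 3 tested translesion synthesis genes gave 0.03 to 0.06 by their brightest probes. *Polk* had ratios of -0.33, -0.45, -0.60 and -0.59 in Control mice and -0.52, -0.40, -0.47 and -0.33 in BaP-exposed mice. The groups overlapped, and the log2 fold change was 0.06 (SE 0.09; limma adjusted p = 0.859). A dimmer *Polk* probe had the opposite sign and no overlap. It gave -0.45, -0.32, -0.47 and -0.36 in Control mice and -0.54, -0.49, -0.77 and -0.65 in BaP-exposed mice, a log2 fold change of -0.21 (SE 0.09; limma adjusted p = 0.544). No direction can thus be given for *Polk*.

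*Rev1*, encoding the scaffold of the translesion polymerases, gave 0.03, and *Rev3l*, encoding the catalytic subunit of polymerase zeta, gave 0.06. *Polh*, encoding polymerase eta, was not tested, because its single probe was well above background on 3 of 8 arrays. Its ratios were -1.10, -1.36, -1.48 and -1.39 in Control mice and -1.50, -1.10, -1.74 and -1.28 in BaP-exposed mice, which overlapped.

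Different probes of a gene often disagreed at this size of difference. Of the 8 genes with more than 1 tested probe, 4 (*Polk*, *Rad23b*, *Cdk7* and *Ercc8*) had probes of both signs. The 2 probes differed by 0.27 on the log2 scale for *Polk* and by 0.18 for *Xpa*, where both were above 0.

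A second description does not depend on the exposure. In all 8 mice, 30 of the 40 genes lay below the reference RNA, compared with 36.1% of all tested genes, and 4 (*Cetn2*, *Ercc6*, *Ccnh* and *Ercc4*) lay above it, compared with 45.4%. *Ddb2* and *Gtf2h5*, which had no value for Control 1, were not counted. Of 27 further genes of these pathways, described below, 18 also lay below the reference RNA in all 8 mice. So did 10 of 13 tested p53 targets outside repair. All 9 gap-filling genes and all 3 ligation genes were below the reference in every mouse. The ratio was centered within each array and the dyes were not swapped, so it describes these hybridizations and sets no level of 1 gene against another.

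**Figure D3:**
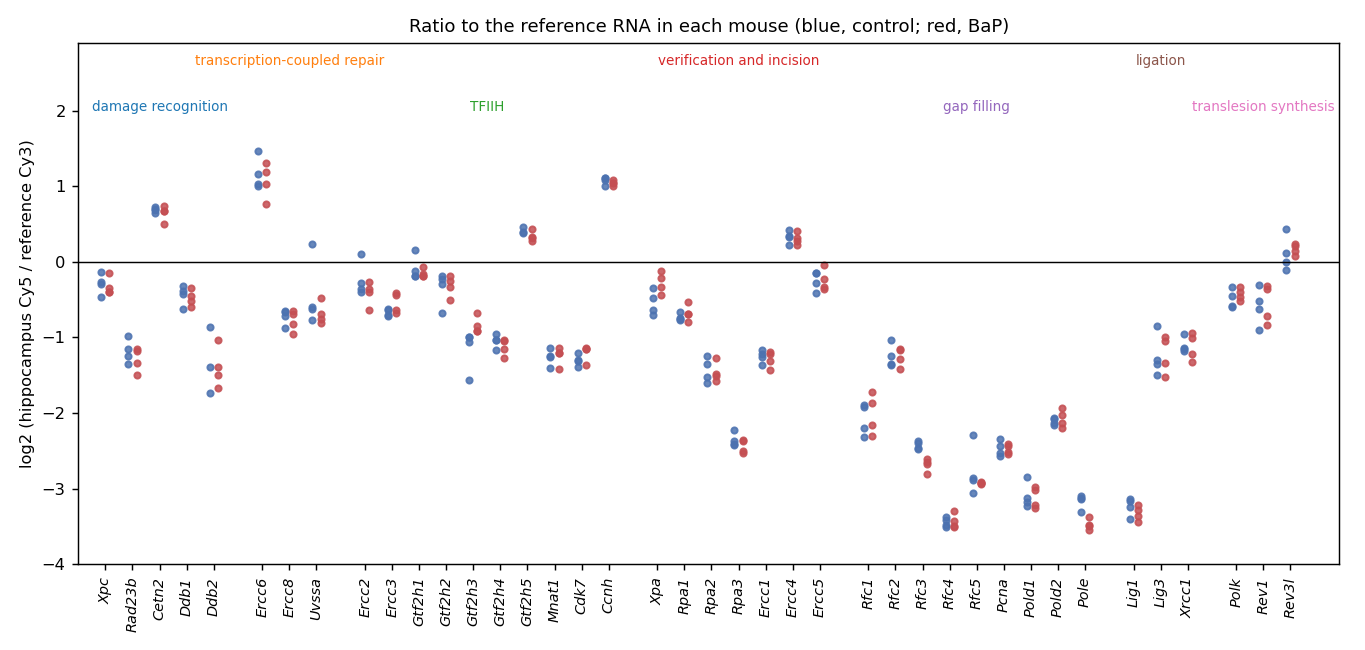
Log2 ratio of hippocampal RNA (Cy5) over the reference RNA (Cy3) in each mouse (blue, Control; red, BaP) for the 40 tested genes, grouped by role, with the line at equal signal. Every point of the 9 gap-filling and 3 ligation genes lies below the line, and the colors overlap for most genes.

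Dividing cells use the gap-filling machinery for replication, so genes of dividing cells were followed beside it. Of 14 listed, 12 were tested, and all 12 lay below the reference RNA in all 8 mice. Their log2 fold changes were below 0 in 12 of 12, with a median of -0.16 and none past the threshold. The count below the all-gene median was 12 with median centering, where 1 lay below 0, and 9 with the Cy5 channel alone. Unadjusted p-values of 0.05 or less were found for 4 of the 12 (9.44% of all tested genes), and 3 had no overlap (5.12% of all tested genes). The 4 were *Birc5* at -0.42, *Prc1* at -0.25, *Ccna2* at -0.25 and *Tk1* at -0.24, with limma adjusted p from 0.465 to 0.539. The mean ratio of the 12 genes ran from -4.18 to -3.99 in Control mice and from -4.40 to -4.18 in BaP-exposed mice, so the groups met at their edges. The mean of the 9 gap-filling genes ran from -2.60 to -2.46 and from -2.61 to -2.60. The part of dividing cells in the *Pole* and *Rfc3* values was not tested.

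**Figure D4:**
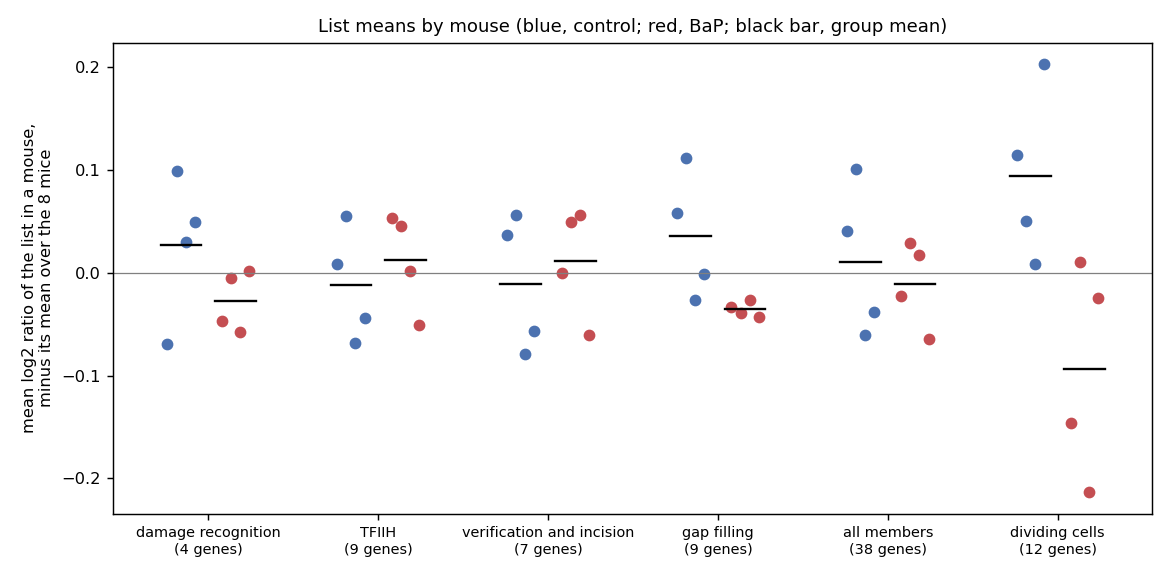
Mean log2 ratio of the genes of a role or list in each mouse, minus its mean over the 8 mice (blue, Control; red, BaP; black bar, group mean), over the genes with a value on all 8 arrays. The means of all 38 such repair genes overlap between the groups, from -1.17 to -1.01 in Control and from -1.18 to -1.08 in BaP-exposed mice before centering, and the gap between group means is wider for the 12 genes of dividing cells than for the 4 roles plotted (damage recognition, TFIIH, verification and incision, and gap filling).

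Further genes of the same pathways numbered 28, of which 27 were tested. None passed the threshold, 9 were above 0 and 18 below, and their median was -0.01. An unadjusted p of 0.05 or less was found for 3 of the 27, near the 9.44% of all tested genes. *Cul4b*, a cullin of the DDB1 ubiquitin ligases, gave 0.34 (SE 0.10; limma adjusted p = 0.498) with overlapping groups. *Ube2b*, encoding a RAD6 enzyme that ubiquitinates PCNA at stalled forks, gave -0.27 (SE 0.07; limma adjusted p = 0.488). Its ratios were 0.79, 0.85, 0.68 and 0.75 in Control mice and 0.50, 0.49, 0.51 and 0.51 in BaP-exposed mice, without overlap. *Wdr48*, encoding a cofactor of the deubiquitinase that removes this mark, gave -0.31 (SE 0.12; limma adjusted p = 0.537) with overlapping groups.

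Targets of p53 outside repair were listed for the same reason, as genes that respond to DNA damage in many tissues. Of 14 listed, 13 were tested, with 9 above 0, 4 below, a median of 0.04 and none past the threshold. The groups did not overlap for 2 of the 13 (5.12% of all tested genes), *Trp53inp1* at 0.32 (limma adjusted p = 0.490) and *Ccng1* at 0.18 (limma adjusted p = 0.582). An unadjusted p of 0.05 or less was also found for 2 of the 13 (9.44% of all tested genes), *Trp53inp1* and *Cdkn1a*. *Plk2* had the largest value, 0.34 (limma adjusted p = 0.582). *Cdkn1a*, encoding the cell cycle inhibitor p21, gave -0.28 (limma adjusted p = 0.551).

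Markers of other cell types were measured in the same RNA. All 5 erythroid genes had log2 fold changes below 0, 2 of them past the threshold (0.0199% of all tested genes), and their mean ratio ran from 4.62 to 4.84 in Control mice and from 3.54 to 3.90 in BaP-exposed mice. All 10 choroid plexus genes had log2 fold changes above 0, with a median of 0.81 and none past the threshold. Their mean varied widely within both groups, from 2.29 to 4.13 and from 1.79 to 5.24. The mean of 10 markers of hippocampal neurons ran from 3.61 to 3.74 and from 3.75 to 4.10, with 7 markers above 0 and 3 below. The groups nearly met, at 3.743 in Control 3 and 3.747 in BaP 4. Of the 10, *Dsp* at 1.02 and *Pou3f1* at 0.52 had an unadjusted p of 0.05 or less (9.44% of all tested genes), and *Rbfox3* was at -0.18. The mean of 8 microglial genes ran from 2.38 to 2.49 and from 2.41 to 2.50, with *Cx3cr1* at -0.22 the 1 gene of the 8 below that p, against the same share of all tested genes. Within slide row 1 the erythroid mean was 4.83 and 4.62 in Control 1 and 2 and 3.63 and 3.54 in BaP 1 and 2. Within slide row 2, where the label fields disagree, it was 4.84 and 4.80 in the mice titled Control and 3.78 and 3.90 in those titled BaP, so it was lower in the mice titled BaP in both rows. For 7 endothelial genes with a value on all arrays the mean ran from 2.05 to 2.35 and from 2.10 to 2.31, and 3 of the 8 tested reached an unadjusted p of 0.05, compared with 9.44% of all tested genes. These were *Cldn5* at -0.57, without overlap (limma adjusted p = 0.138), *Slco1a4* at 0.36 and *Tek* at 0.26. In slide row 2 *Cldn5* was at 5.39 and 5.25 in the mice titled Control and at 4.71 and 4.69 in those titled BaP. The part of any of these in the values of the repair genes was not tested.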

How the data were processed

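RNA of 8 hippocampi was hybridized to two-color Agilent arrays with a universal reference RNA. The authors extracted spot intensities with Agilent Feature Extraction 11.0.1.1 (per the file headers), and deposited these files, with Agilent's log10 ratios, and a table of LOWESS-normalized log2 ratios. Spot medians were corrected by normexp (offset 50) and normalized by loess within arrays in limma 3.58.1 (R 4.3.3), without control or outlier spots. Of 55681 probes, 32600 passed the scanner's call of well above background for Cy5 on 4 or more of 8 arrays and were tested together, with Benjamini-Hochberg adjustment. The methods name MAANOVA, which was replaced by limma. Of 28685 probes with a RefSeq accession, 27235 were named. Mice were grouped by title. The genes, lists and tests were chosen with earlier results of these data known. Each gene was named in its role group. Values per mouse were given for genes with an unadjusted p of 0.05 or less or without overlap, for the largest difference in each role, and for *Xpa*, *Xpc*, *Ddb2*, *Pcna*, *Polh* and *Polk*.

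Alternatives changed the background correction, normalization, probe filter, outlier spots, variance model, blocking, slide row, grouping field and probe choice, or left out 1 mouse. On simulated data for this comparison, with 200 of 32600 probes changed, the fit recovered 88 of 100 changes of 1 log2 unit and 99 of 100 changes of 2. It also called 6 unchanged probes. Both sizes exceed the difference of any repair gene, and recovery of smaller changes was not simulated. Differences under 1.5-fold were below the calling threshold, so a low count of calls does not show that expression was equal. The number of arrays, 4 per group, limits the precision. The array probes' own sequences were not used here.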

Additional observations from a re-analysis of the deposited data

Results flagged for a closer look

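Within the groups of 4 mice, 78 were examined for a mouse whose gap to the nearest other passed Dixon's critical value at 95%, and 2 did, where about 3.9 would by chance. *Gtf2h3* in Control 4 was at -1.56, with the other Control mice from -1.06 to -0.99, and the gap was 0.882 of the range of the group. *Cdk7* in BaP 3 was at -1.36, with the other BaP-exposed mice from -1.16 to -1.14, a gap of 0.911 of the range.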

How the results depend on the processing

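No repair or translesion gene was called under any alternative run, and the lowest adjusted p was 0.219. Their median log2 fold change of -0.026 became 0.23 with median centering in place of loess, which moved the median of all genes to 0.21. Relative to that shift *Pole* was at -0.24, *Rfc3* at -0.24, *Xpa* at 0.30 and *Gtf2h3* at 0.32. The Cy5 channel alone gave -0.23, -0.18, 0.31 and 0.31 for these 4 genes.

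The 3 probes called among all probes became 0 with Agilent's log ratios, 0 with a gene-wise F test, 5 without the filter on dim probes and 6 with Cy5 alone. They became 0 within slide row 1, 0 within slide row 2 and 0 with the groups by source name, and 1 to 3 when 1 mouse was left out (1 without Control 1, 3 or 4 or BaP 2).

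Repair genes with an unadjusted p of 0.05 or less numbered 1 within slide row 1 (7.7% of all genes), 2 within slide row 2 (6.79%), 1 by source name (4.49%) and 2 to 4 with 1 mouse left out (2 without BaP 2, BaP 3 or Control 4, where all genes gave 5.36%, 6.02% and 7.3%). Genes without overlap numbered 13 in row 1 (39% of all genes), 12 in row 2 (38.5%), 0 by source name (2.58%) and 3 to 6 with 1 mouse left out (6 without Control 1, where all genes gave 10%). By source name the 4 signs turned, to -0.20 for *Gtf2h3*, -0.17 for *Xpa*, 0.025 for *Rfc3* and 0.013 for *Pole*. The label fields differ only in slide row 2, so differences alike in both rows cancel under that grouping. Which field is right was not tested. In both slide rows the erythroid mean was lower in the mice titled BaP.

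Of 899 alternative values for the other 36 genes, 125 had another sign and 59 moved by 1 SD or more. Replicate numbers did not pair the mice, as deviations of same-numbered mice correlated at -0.41 to 0.01, and with the number as a replicate block 3 repair genes reached an unadjusted p of 0.05 (7.93% of all genes), 3 did not overlap (5.12%) and 0 were called. *Polh* was too dim to be tested. For *Uvssa* the SE was 0.20 with all mice and 0.10 without Control 1. The part of its dim signal in this was not tested.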
